A study of Mus musculus with 7 samples.

Results

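Ago2-knockout mouse embryonic stem (ES) cells were compared before and after differentiation towards extra-embryonic endoderm (XEN). The libraries were chosen by their titles: 5 of the 7 libraries of the series come from Ago2-knockout cells, 3 from undifferentiated cells (KO ESC) and 2 from differentiated cells (KO XEN). The remaining 2, from wild-type XEN cells, entered the test of a difference between lines and alternative fits only. All 5 knockout libraries are from E14 cells of the 129/Ola background, and all are labelled as carrying the Ago2 knockout, so that none of them is labelled as a wild-type control. KO ESC gave the library C4 and the libraries 5-3_1 and 5-3_2, and KO XEN gave the libraries C4 and 5-3, named after the knockout lines C4 and 5-3. KO ESC grew in DMEM with serum and LIF on gelatine, whereas KO XEN had spent 5 days in RPMI with serum, to which all-trans retinoic acid (0.1 µM) and activin A (10 ng/mL) were added. Medium, loss of LIF, the added factors and time therefore changed together and cannot be told apart. The labels do not say whether a line is a single clone or whether libraries of a state came from separate cultures, so that p-values measure only the spread between these libraries, which may be technical.

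Mouse ES cells keep the state of the early epiblast through LIF and a network of transcription factors around Oct4 (Pou5f1), Nanog and Sox2. Retinoic acid enters the nucleus, binds the RAR and RXR receptors on DNA and switches on HOX genes and its own degrading enzymes, and activin acts through SMAD proteins. Extra-embryonic endoderm, the tissue that lines the yolk sac, is set up by Gata6, Gata4, Sox17 and Sox7 and secretes basement membrane. Ago2 belongs to the Argonaute proteins, which carry microRNAs to their target transcripts, and is the member able to cut a fully paired target.

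Values are reads per gene scaled to a common library size (CPM), listed as C4, 5-3_1 and 5-3_2 for KO ESC and as C4 and 5-3 for KO XEN. Log2 fold changes are KO XEN over KO ESC with line as a block, given as estimate ± SE. The same holds where a gene is said to rise or fall by a value. This SE is the size of the estimate divided by the square root of the edgeR F statistic. For genes with few counts in a state it can be smaller than the counting error alone, and such estimates are less precise than it implies. A gene was called at an edgeR adjusted p below 0.05. Total counts ran from 39998808 to 48650113 in KO ESC and were 13941826 (C4) and 33389566 (5-3) in KO XEN, so that KO XEN C4 was the shallowest library. Mitochondrial genes held 2.79% to 3.26% of counts in KO ESC and 0.781% and 0.979% in KO XEN, and cytosolic ribosomal protein genes 2.38% to 2.72% and 1.69% to 1.72%. These shares did not overlap between states (exact permutation test, two-sided, p = 0.1, the smallest that 3 against 2 libraries allow). Libraries 5-3_1 and 5-3_2 differed by more than sampling noise (chi-square per degree of freedom 30.5 over 10743 genes) and were kept as 2 samples.

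Ago2 itself (ENSMUSG00000036698, mm10 chromosome 15, 73095844 to 73184935) checks the labels. Its transcript stood at 96.5, 9.6 and 9.77 CPM in KO ESC and at 118 and 10.3 CPM in KO XEN. Both libraries labelled C4 held a high level and all libraries of 5-3 a low level, and the transcript was not called on differentiation (0.18 ± 0.13, edgeR adjusted p = 0.26). The transcript therefore does not check the knockout label of the C4 libraries, the part deleted is not given in the sources used here, and the tables hold no protein level. Counts that move by over 1.5 times without a C4 library are given beside each gene list. Of the other Argonaute genes, Ago3 stood at 48.4, 30.1 and 38 CPM in KO ESC and 14.2 and 11.4 CPM in KO XEN and fell (-1.66 ± 0.18). Ago1 fell from 206, 127 and 136 to 81.1 and 99.3 CPM (-0.80 ± 0.23, edgeR adjusted p = 0.0227). Ago4 rose from 0.638, 0.615 and 0.324 to 3.74 and 3.65 CPM (2.79 ± 0.39) and was the least abundant of the 4 by count in KO XEN.

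Differentiation changed most of the measured transcriptome. Of 17887 genes tested, 13061 (73.0%) were called by edgeR's quasi-likelihood test (Benjamini-Hochberg adjusted over all genes tested), 6444 of them (36.0%) higher and 6617 (37.0%) lower in KO XEN. Past a 2-fold change, 4317 genes (24.1%) were higher and 4180 (23.4%) were lower. By the estimate alone, 911 called genes were at least 32-fold higher and 746 at least 32-fold lower. Genes called lower held 63.7% of all counts in KO ESC, and genes called higher held 61.3% of all counts in KO XEN. The median log2 fold change over all genes tested was -0.10, and the counts of gene lists below are to be read against the shares of 36.0% and 37.0%.

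Level before differentiation went with direction. Of 2402 genes above 100 CPM in KO ESC, 66.7% were lower and 14.6% were higher, and of 692 genes below 0.1 CPM there, 685 were higher. Genes below 0.1 CPM also had little room to fall and passed the filter on low counts mainly through KO XEN, so that this split is a description. The filter kept genes at 0.25 CPM or more in 2 libraries (before scaling), which 1203 genes met only through KO XEN and 2304 only through KO ESC. For these genes the filter itself favours the direction. Their number in a gene list was counted for each state separately and is given where it is more than 20% of the list. A complete switch was rarer: 70 genes went from below 0.1 CPM in every KO ESC library to at least 10 CPM in both KO XEN libraries, and 32 went the opposite way.

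Both lines moved mostly alike over all genes. The log2 fold change in C4 and that in 5-3 correlated across the 17887 genes with r of 0.930 (rho 0.920), a description over genes that share libraries and are not independent. Of all genes, 89.2% had the same sign in both lines, and 47 genes were more than 2-fold higher in C4 and more than 2-fold lower in 5-3 by the estimate, against 30 for the opposite pattern. The difference between lines was tested with 2 residual degrees of freedom: edgeR called 0 of 18426 genes, with 1844 at an unadjusted p below 0.05, and DESeq2 called 225. The smallest edgeR adjusted p was 0.227.

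**Figure D1:**
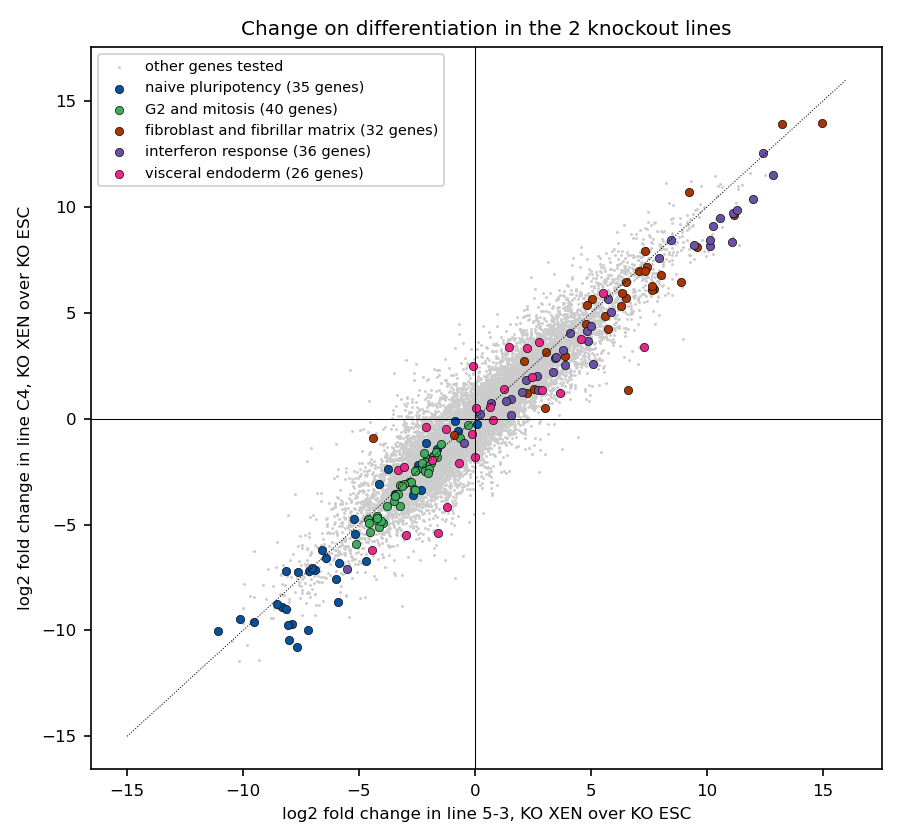
Log2 fold change on differentiation in line 5-3 (horizontal) and in line C4 (vertical) for 17887 genes, each point a gene, with 5 gene lists in colour and the dotted line marking equal change. Naive pluripotency genes (blue) lie at the lower left and fibroblast and interferon genes at the upper right in both lines, whereas visceral endoderm genes (pink) spread on both sides of 0.

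The largest rises included matrix and interferon-induced genes. Col3a1, a fibrillar collagen chain (ENSMUSG00000026043, chromosome 1, 45311538 to 45349706), had 0 counts in all 3 KO ESC libraries and stood at 917 and 1788 CPM in KO XEN, at least 66129-fold higher when KO ESC is set to 3 counts over its libraries. Tnc, the matrix glycoprotein tenascin-C, rose from 0.0245, 0.0985 and 0.101 to 1266 and 1492 CPM (14.14 ± 0.26). Pcdh7, a protocadherin, Postn, the matrix protein periostin, and the interferon-induced genes Ifi44, Ifit3b and Iigp1 also had 0 counts in KO ESC. Their lower bounds were 5777-fold for Pcdh7, 1502-fold for Postn, 3105-fold for Ifi44, 2846-fold for Ifit3b and 1838-fold for Iigp1. Daam2, a formin, rose from 0.0245, 0.0492 and 0.0203 to 233 and 530.3 CPM (13.63 ± 0.23), and Usp18 and Isg15, which remove and supply the ISG15 tag, rose by 13.81 ± 0.33 and 13.61 ± 0.40. Ecm1, a secreted matrix protein (chromosome 3, 95734147 to 95739569), had the highest mean count in KO XEN, at 8810.2 and 13503 CPM, from 2.75, 3.91 and 3.36 CPM in KO ESC (11.77 ± 0.18).

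The largest falls included genes of the naive state and a group of low-level genes with 0 counts after differentiation. Platr7, a noncoding RNA linked to pluripotency, stood at 46.9, 44.6 and 44.1 CPM in KO ESC and had 0 counts in KO XEN, at least 687-fold lower. Prdm14, a regulator of the naive state, fell from 24.6, 21.1 and 21 CPM to 0 counts (at least 338-fold), and Fgf15, a growth factor, from 29.2, 14.4 and 13.8 CPM to 0 counts (at least 286-fold). The pseudogene H2-M6-ps and the genes Chrna9, Lrriq4, Epp13, Mup6, Ly6g6e and Arhgef38 had bounds between 156-fold and 352-fold. Ly6g6e and Arhgef38 were higher in C4 than in 5-3 before differentiation, at 22.3, 5.12 and 5.29 CPM and 17.9, 6.35 and 7.19 CPM.

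The abundant transcripts changed as well. The 5 highest in KO ESC were mt-Co1, Eef1a1, Hsp90ab1, mt-Nd1 and mt-Cytb, and the 5 highest in KO XEN were Ecm1, Eef1a1, Flna, Gm42418 and Sparc. Eef1a1, an elongation factor, stood at 11340, 9353 and 7566 CPM in KO ESC and 8092 and 7563 CPM in KO XEN and was not called (-0.30 ± 0.16, edgeR adjusted p = 0.132). It passed downward without KO XEN 5-3 (adjusted p = 0.0356, range over alternatives 0.0356 to 0.327). Flna, an actin cross-linker, rose from 850.1, 593 and 574 to 4908 and 5951 CPM (3.01 ± 0.21). The mitochondrial transcript mt-Nd1 fell from 5331, 5368 and 5539 to 753 and 1288 CPM (-2.39 ± 0.21). Gm42418 (1.23 ± 0.20) lies over a ribosomal RNA repeat, so that its counts are uncertain.

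The marker genes show how far the label XEN holds. The ES markers Pou5f1, Nanog, Sox2, Esrrb and Zfp42 together held 3038 to 3327 CPM in KO ESC and 12.4 and 16.1 CPM in KO XEN. Pou5f1 fell from 863, 1156 and 1064 CPM to 0.989 and 4.67 CPM. Among 9 extra-embryonic endoderm markers, 7 were called higher and 2, Sox7 and Lama1, were not called. Gata4 rose from 0.785, 6.6 and 4.4 to 42.2 and 85.6 CPM and Gata6 from 0.245, 1.92 and 3.02 to 93.9 and 175 CPM. Sox17 reached only 3.11 and 3.33 CPM, and Sox7 stood at 1.13, 2.51 and 2.61 CPM before and 1.48 and 3.21 CPM after. Lama1, the alpha chain of laminin-111, stood at 172, 99.8 and 99.5 CPM and 113 and 309 CPM, so that the states overlapped (0.76 ± 0.48, edgeR adjusted p = 0.203).

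Fibroblast and smooth muscle markers were the most abundant by count in KO XEN. Col1a1, Col3a1, Thy1, Acta2 and Tagln together held 9817 and 12760 CPM in KO XEN against 27.3 to 28.7 CPM in KO ESC. The 9 extra-embryonic endoderm markers together held 1625 and 2519 CPM. These sums are of counts, which also depend on transcript length. Acta2, smooth muscle actin, stood at 3979 and 4613 CPM and Col1a1 at 1429 and 2186 CPM, whereas Thy1, a fibroblast surface protein, fell from 8.98, 19.6 and 18.9 to 4.73 and 0.857 CPM (-2.74 ± 0.89). Among mesoderm markers Foxf1 rose to 18.6 and 18.5 CPM and Twist1 to 25.4 and 35.3 CPM, while T and Mesp1 had 0 counts in KO XEN. The blood and endothelium markers Ptprc, Pecam1, Cdh5 and Hbb-bh1 together held 1.62 and 1.65 CPM in KO XEN, with 0 counts for Ptprc and Hbb-bh1. The trophoblast markers Cdx2, Elf5 and Tpbpa held 0.282 and 0.19 CPM together, and the neural crest marker Sox10 stood at 0.424 and 0.254 CPM. The neural markers Sox1, Pax6, Tubb3 and Dcx held 92 and 120 CPM together, from 61.3, 72.5 and 62.9 CPM in KO ESC, with Tubb3 at 67.7 and 84.8 CPM of it. The germ cell markers Ddx4 and Dazl held 15.1 and 15.8 CPM together, from 36.4, 38.1 and 44.4 CPM, and Ddx4 was not called. Over whole gene lists, which also hold unequal numbers of genes, parietal endoderm and basement membrane genes summed to 19688 and 20694 CPM, fibroblast and fibrillar matrix genes to 13777 and 18621 CPM and smooth muscle and contractile genes to 31708 and 34495 CPM. Primitive endoderm genes summed to 12008 and 14824 CPM. The trophoblast list summed to 6890 and 4277.5 CPM, unlike the 3 trophoblast markers, so that such sums depend on the genes listed. The marker sums of extra-embryonic endoderm and of fibroblasts and smooth muscle were thus both higher in KO XEN than in KO ESC, but not every marker was high. Of the endoderm sum, Col4a1, a collagen chain of basement membrane, held 1089 and 1540 CPM in KO XEN. Sox17 held 3.11 and 3.33 CPM of it and Sox7 1.48 and 3.21 CPM. In bulk samples, fewer cells of a type and less RNA per cell cannot be told apart, and the cell types in these cultures were not tested.

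**Figure D2:**
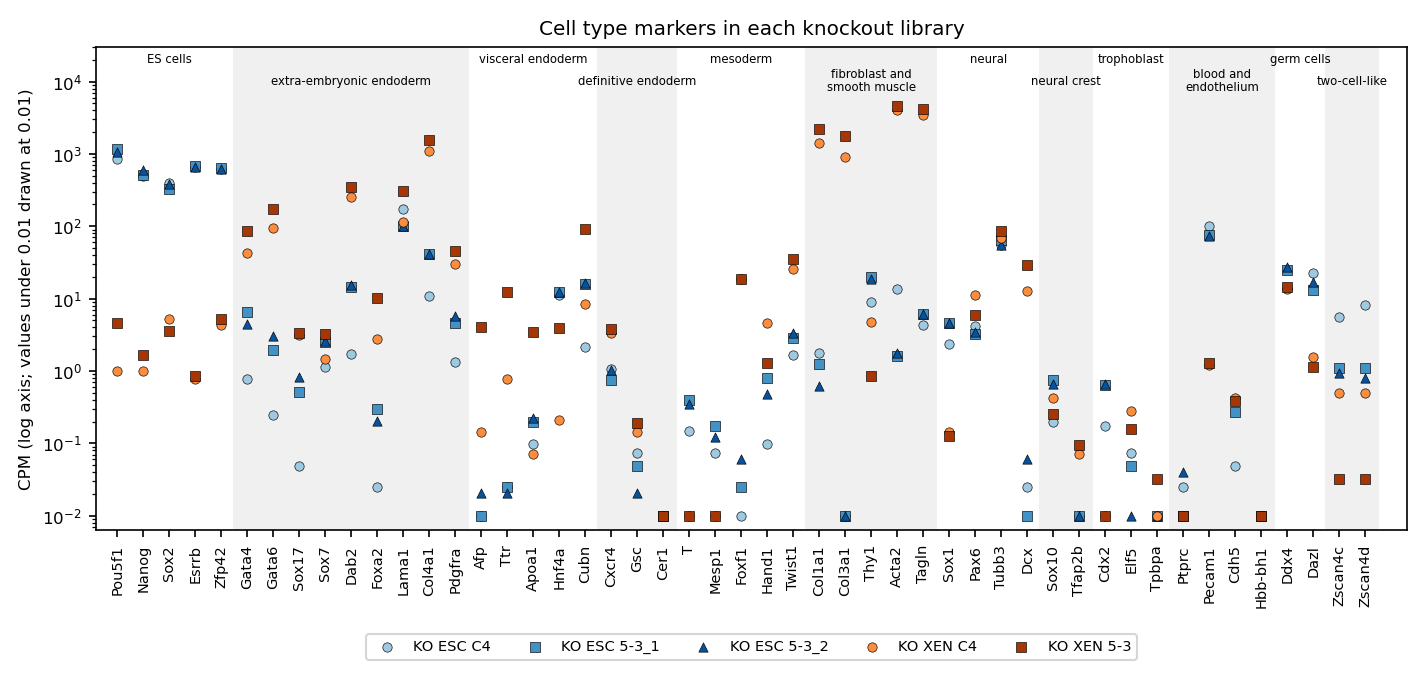
CPM of 49 cell type markers (log axis, values under 0.01 drawn at 0.01) in the 3 KO ESC libraries (blue) and the 2 KO XEN libraries (orange and brown), grouped by the cell type they mark. The 5 ES markers fell in both KO XEN libraries, and Acta2 and Tagln stood between 3487 and 4613 CPM there.

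The visceral endoderm markers separated the KO XEN libraries. Ttr, which carries thyroid hormone, stood at 0.777 and 12.2 CPM in C4 and 5-3, from 0.0245, 0.0246 and 0.0203 CPM in KO ESC, and Afp, alpha-fetoprotein, at 0.141 and 4 CPM. Apoa1, an apolipoprotein, stood at 0.0706 and 3.43 CPM, and Hnf4a, a regulator of visceral endoderm, fell from 11.4, 12.2 and 12.2 to 0.212 and 3.97 CPM (-2.58 ± 0.75). All 5 visceral markers, with Cubn at 8.4 and 91.3 CPM, were higher in KO XEN 5-3 than in KO XEN C4. Their sum was 9.61 and 115 CPM, against 13.6, 28.5 and 29.1 CPM in KO ESC, so that the sum of C4 did not exceed that of its own ES library. That ES sum was mostly Hnf4a, at 11.4 CPM. In C4, Hnf4a and Apoa1 were lower after differentiation, and Ttr, Afp and Cubn (from 2.11 to 8.4 CPM) were higher, with few counts for Afp and Apoa1. The lines already differed before differentiation: Dab2, an endocytic adaptor of the endoderm, stood at 1.69, 14.4 and 15.3 CPM and Gata6 at 0.245, 1.92 and 3.02 CPM in KO ESC, lower in C4 than in both libraries of 5-3. No test of 1 library against 1 is possible here, and the test of the difference between lines called none of these genes in edgeR.

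Genes of naive pluripotency fell almost without exception: of 35 measured, 0 were higher, 34 were lower and 1 was not called, with a median log2 fold change of -6.59 against -0.10 over all genes. Esrrb, an orphan nuclear receptor of the network (chromosome 12, 86361117 to 86521628), fell from 657, 681 and 665 to 0.777 and 0.857 CPM (-9.65 ± 0.18). Zfp42, known as Rex1, fell from 624, 642 and 622 to 4.38 and 5.24 CPM (-7.01 ± 0.17). Spp1, the secreted protein osteopontin, fell by 6.49 ± 0.16 on the log2 scale, and Gdf3, a ligand of the TGF-beta family, was 2207-fold lower by ratio (95% counting interval 611 to 18230). All libraries of one state lay clear of those of the other for these 4 genes, as they did for most genes. Of all genes tested, 39.4% lay clear and higher in KO XEN and 42.6% lay clear and lower.

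The formative and primed epiblast list went both ways, with 5 of 18 higher and 8 lower. Dnmt3b, a DNA methyltransferase of the epiblast, fell from 416, 327 and 329 to 10.1 and 14.7 CPM (-4.83 ± 0.26), and Foxd3, a forkhead factor, was 313-fold lower by ratio (107 to 1521). Cdh2, N-cadherin, rose from 4.32, 2.26 and 2.69 to 197 and 256 CPM (6.20 ± 0.31), and the zinc finger factor Sall2 rose by 4.44 ± 0.16. Of 6 measured genes of the 2-cell-like state, all of which passed the filter only through KO ESC, 5 were lower, and 3 without line as a block, with a filter of 1 CPM or after thinning to the lowest total. Zscan4d fell from 8.15, 1.11 and 0.81 to 0.494 and 0.0317 CPM (-4.24 ± 0.46), and most of its ES level came from C4. The germ cell list, which includes genes known to be silenced by methylation, gave 0 higher (2 without KO XEN 5-3) and 14 lower of 23, among them Dnmt3l, the methyltransferase cofactor (-8.11 ± 0.18), Sycp3, a synaptonemal protein (-4.31 ± 0.24), and Piwil2, an Argonaute-related protein (-3.14 ± 0.20).

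Chromatin regulators split. In the DNA methylation and Polycomb list 9 of 29 were higher and 18 were lower. Ezh2, the Polycomb histone methyltransferase, fell from 239, 264 and 259.9 to 35.9 and 39.4 CPM (-2.73 ± 0.12), and its partner Eed from 296, 441 and 419 to 39.9 and 36.1 CPM (-3.28 ± 0.21). Kdm6b, which removes the Polycomb mark, rose from 35.7, 41.2 and 40.1 to 217 and 251 CPM (2.62 ± 0.11), and Tet3, which oxidises methylated cytosine, from 17, 15.5 and 15.8 to 150.2 and 190.2 CPM (3.41 ± 0.15). These 4 genes moved alike in both lines.

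Regulators and early markers of primitive endoderm rose in 19 of 25 cases and fell in 3, with a median of 2.72. Sparc, a secreted matrix protein, rose from 211, 221 and 215 to 4617 and 5422 CPM (4.56 ± 0.12), Serpinh1, the collagen chaperone, from 25.3, 52.4 and 62.3 to 1800.5 and 2283 CPM (5.68 ± 0.24), and Fgfr2, an FGF receptor, by 2.46 ± 0.13. Lrp2, the endocytic receptor megalin, went against the list and fell from 163, 189.6 and 202 to 42.1 and 53.8 CPM (-1.90 ± 0.12). Parietal endoderm and basement membrane genes rose in 26 of 27 cases, with 0 lower and a median of 4.46. Plat, tissue plasminogen activator, rose from 0.515, 0.739 and 0.79 to 220.3 and 364 CPM (8.83 ± 0.15), Stra6, the retinol-binding protein receptor, from 0.589, 1.08 and 0.952 to 76.1 and 109 CPM (6.83 ± 0.17), and Lamb1, a laminin chain, by 2.16 ± 0.13. Fibroblasts and smooth muscle also express many genes of the last list, and the collagens of the marker sums above rose with it. Sparc belongs to both lists. The part of the endoderm in the rise of either list was not tested.

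Visceral and definitive endoderm genes showed no common direction. Of 26 visceral genes 11 were higher and 9 lower, close to the shares over all genes, and 7 of the 26 passed the filter only through KO ESC. The count of higher genes was 7 without line as a block or without KO XEN 5-3, and 6 with a filter of 1 CPM. Krt19, a keratin, rose from 3.63, 4.11 and 3.99 to 225 and 190 CPM (5.72 ± 0.16) and Amot, a regulator of Hippo signalling, by 4.25 ± 0.22. Spink1, a protease inhibitor, fell from 9.42, 4.28 and 3.65 to 0.0706 and 0.127 CPM (-5.62 ± 0.51). Cubn, the receptor cubilin, was called higher (2.30 ± 0.17), but its states overlapped and the call was lost without line as a block (adjusted p = 0.108, range over alternatives 1.91e-25 to 0.108). In the definitive endoderm and gut list 6 of 14 were higher and 3 were lower (5 without either C4 library). Foxa1 rose from 0.221, 0.271 and 0.162 to 7.27 and 7.62 CPM (5.09 ± 0.34) and Foxa2 from 0.0245, 0.295 and 0.203 to 2.75 and 10.3 CPM (5.59 ± 0.41), both pioneer factors, whereas Trh, a neuropeptide hormone that ES cells express, fell from 457, 373 and 351 to 1.13 and 0.889 CPM (-8.66 ± 0.18).

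Matrix genes of fibroblasts rose in 30 of 32 measured cases, 9 of which passed the filter only through KO XEN, and Thy1 alone fell, with a median of 6.19. Timp2, an inhibitor of metalloproteinases, rose from 1.25, 2.63 and 2.29 to 317 and 403 CPM (7.59 ± 0.20), Loxl1, which cross-links elastin and collagen, from 1.03, 1.33 and 0.932 to 135 and 191 CPM (7.26 ± 0.21), and Col5a1, a fibrillar collagen chain, from 12.6, 12.4 and 9.95 to 781 and 892 CPM (6.16 ± 0.18). By symbol, 31 of 39 collagen chains were higher and 4 were lower, and all 5 lysyl oxidases and all 6 IGF-binding proteins measured were higher. ADAMTS proteases were higher in 16 of 18 cases and matrix metalloproteinases in 9 of 12. These families were chosen with results known.

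Contractile genes of smooth muscle were higher in 29 of 29 cases, with a median of 4.54. Tagln, an actin-binding protein (chromosome 9, 45929619 to 45936058), rose from 4.27, 6.13 and 6.04 to 3487 and 4172 CPM (9.52 ± 0.16), Myh11, smooth muscle myosin, from 0.221, 0.418 and 0.304 to 159 and 282 CPM (9.57 ± 0.18), and Lmod1, leiomodin, from 1.13, 1.16 and 1.15 to 190.2 and 180 CPM (7.32 ± 0.14). Acta1, skeletal actin, rose from 0.221, 0.172 and 0.122 to 132 and 99.2 CPM (9.31 ± 0.19). The serum response factor SRF binds the CArG box of such genes. Of 24 promoters of the list in the RefSeq table (GRCm38.p6, 250 bases before to 50 after the start), 6 held a CArG box on either strand (25%), against 1.57% of all 27025 promoters of that length and 1.32% of those of genes tested. The median log2 fold change of list members was 5.31 with the box and 3.85 without it. Those of Acta1 (chr8:123894799-123894888, minus strand) and of Cnn2, a calponin that rose from 45.4, 54.7 and 50 to 950.3 and 1112 CPM (chr10:79988504-79988593, plus strand), are shown because they are the members with a match and the smallest adjusted p. Promoters printed here were chosen after motif shares were seen, and capitals mark the match:
Acta1: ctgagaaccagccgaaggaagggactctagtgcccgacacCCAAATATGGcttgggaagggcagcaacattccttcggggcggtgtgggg
Cnn2: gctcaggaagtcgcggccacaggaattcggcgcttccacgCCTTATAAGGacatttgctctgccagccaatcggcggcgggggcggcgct

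Genes of the primitive streak and mesoderm rose in 22 of 31 cases, 9 of which passed the filter only through KO XEN, and fell in 3 (6 without either C4 library), with a median of 3.67. Foxc2, a forkhead factor of mesenchyme, rose from 0.0736, 0.0492 and 0.0405 to 40.1 and 105 CPM (10.46 ± 0.34), Pdgfrb, a PDGF receptor, from 3.44, 3.84 and 3.48 to 101 and 178 CPM (5.31 ± 0.21), and Snai2, a repressor of epithelial genes, by 4.46 ± 0.23. Hand2, a heart and limb factor, had 1 count in KO ESC and stood at 13.1 and 21.9 CPM in KO XEN. Tcf15, a factor of the somites that ES cells also express, fell from 9.47, 23.1 and 23 to 0.353 and 0.508 CPM (-5.27 ± 0.29). Of integrins and matrix receptors 23 of 26 rose and 0 fell (2 without either C4 library), among them the hyaluronan receptor Cd44 (5.12 ± 0.23), the glypican Gpc6 (7.45 ± 0.17) and the syndecans Sdc2 (5.07 ± 0.13) and Sdc3 (6.54 ± 0.23).

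Junction genes went both ways. In that list 19 of 31 were higher and 5 were lower. Cdh11, a mesenchymal cadherin, rose from 0.0245, 0.0738 and 0.122 to 165 and 390 CPM (11.98 ± 0.22), and so did the desmosomal proteins Dsp, from 35.6, 21.4 and 22.5 to 275 and 168 CPM (2.94 ± 0.11), and Jup, by 2.80 ± 0.11. Epcam, an epithelial adhesion protein, fell from 134, 101 and 112 to 13.1 and 18.2 CPM (-2.87 ± 0.23), and Grhl2, an epithelial transcription factor, from 112, 78.7 and 81.4 to 4.52 and 2.19 CPM (-4.94 ± 0.20). IGF and PDGF signalling genes rose in 18 of 21 cases, with Irs1, an adaptor of the insulin receptor, up from 0.859, 0.615 and 0.527 to 80.9 and 60.5 CPM (6.65 ± 0.17). Kit, a receptor kinase, fell from 125, 103 and 110 to 3.25 and 31.6 CPM (-2.88 ± 0.78), by less in 5-3 than in C4.

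Retinoic acid target genes rose in 23 of 28 cases, 8 of which passed the filter only through KO XEN, and fell in 2 (5 without either C4 library), with a median of 5.05. Rarb, a retinoic acid receptor and direct target (chromosome 14, 16430839 to 16819156), rose from 0.123, 0.123 and 0.182 to 99.9 and 119.5 CPM (9.58 ± 0.20). Cyp26b1, which degrades retinoic acid, rose from 0.196, 0.418 and 0.203 to 494 and 563 CPM (10.98 ± 0.27), Nr2f2, an orphan receptor, from 0.0245, 0.0738 and 0.0405 to 69.2 and 94.5 CPM (10.78 ± 0.24), and Meis2, a HOX cofactor, from 2.11, 2.41 and 2.47 to 219 and 305 CPM (6.85 ± 0.14). Gbx2, a homeobox factor of naive cells, fell from 19.7, 59 and 72.4 to 5.65 and 4.41 CPM (-3.0 ± 0.54). Retinoic acid receptors bind direct repeats spaced by 5 bases (DR5). A DR5 was found in 2 of 19 promoters of the list, Rarb and Cyp26a1, in 0.0962% of all promoters and in 0.0576% of those of genes tested. Cyp26a1, the other degrading enzyme, rose from 0.123, 0.369 and 0.243 to 79.9 and 97.2 CPM. The repeat, in capitals, lies 53 to 37 bases before the start of Rarb and 32 to 16 bases before that of Cyp26a1. The stretches are those of Rarb at chr14:16575477-16575569 on the minus strand and Cyp26a1 at chr19:37697736-37697807 on the plus strand:
Rarb: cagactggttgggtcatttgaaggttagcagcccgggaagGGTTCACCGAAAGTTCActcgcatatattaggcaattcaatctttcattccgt
Cyp26a1: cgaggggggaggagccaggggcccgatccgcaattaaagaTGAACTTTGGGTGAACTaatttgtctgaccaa

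Of 39 HOX genes 37 passed the filter on low counts, 32 of them only through KO XEN, so that for these the direction was favoured by the filter. All 37 were called higher, and the 5 that also passed through KO ESC had a median log2 fold change of 5.33. Over the 37, the median log2 fold change was 7.98, and it was 7.90 when the 4 genes at 0 counts in KO ESC were set to their bound. HOX genes encode the factors that give position along the body axis, and paralog number follows their order in the cluster. The highest levels in KO XEN were those of Hoxa5, at 121 and 116 CPM, and Hoxb9, at 70.9 and 84.4 CPM. Hoxa5 had 2 counts in KO ESC and was 7678-fold higher by ratio (95% counting interval 2124 to 63418). Hoxb9 rose from 1.6, 1.3 and 1.38 CPM (5.77 ± 0.18) and Hoxa3 from 0.0491, 0.0985 and 0.081 to 33.5 and 43.4 CPM (8.99 ± 0.24). Genes at the far end of the clusters took part: Hoxb13 stood at 22.5 and 49.1 CPM and Hoxc13 at 27.5 and 30.6 CPM in KO XEN, from 0.0491, 0.394 and 0.365 and 2.36, 1.67 and 1.78 CPM in KO ESC. Hoxa11 and Hoxd12 did not pass the filter on low counts, at 0.141 and 0.0952 CPM and 0.141 and 0.0317 CPM in KO XEN. The annotated spans of Hoxa3, Hoxc5 and Hoxd3 overlap those of neighbours, so that counts of these genes are uncertain.

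**Figure D3:**
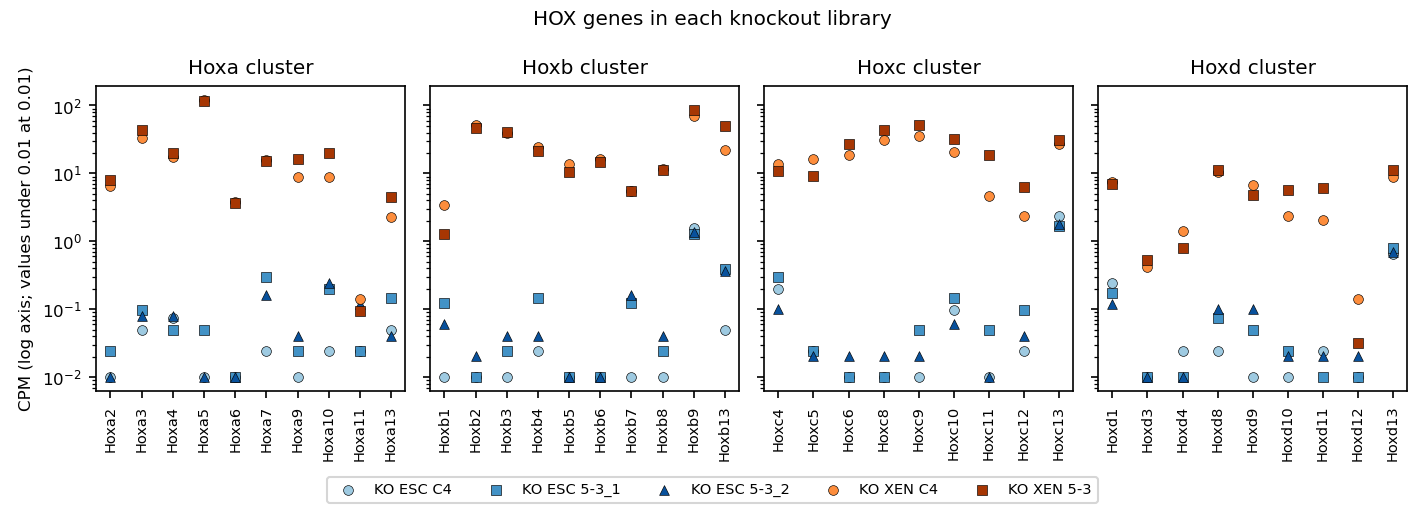
CPM of the HOX genes drawn from the 4 clusters, in paralog order (log axis, values under 0.01 drawn at 0.01), in the 3 KO ESC libraries (blue) and the 2 KO XEN libraries (orange and brown). Apart from Hoxa11 and Hoxd12, the KO XEN libraries lie above all KO ESC libraries, and for most genes they lie close together. 5-3 lies well above C4 at Hoxa10, Hoxb13, Hoxc11, Hoxc12, Hoxd10 and Hoxd11, and C4 well above 5-3 at Hoxb1.

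Signalling lists moved mostly upward. For activin, Nodal and TGF-beta 18 of 29 were higher and 5 were lower (8 without KO XEN 5-3). The ligand Tgfb2 rose from 0.515, 0.615 and 0.648 to 160 and 173 CPM (8.15 ± 0.15), and its latency binding proteins Ltbp1 and Ltbp3 rose by 6.28 ± 0.20 and 6.38 ± 0.17. Tdgf1, the Nodal co-receptor Cripto, fell from 736, 702 and 735 to 4.94 and 2.44 CPM (-7.77 ± 0.31). BMP and ID genes rose in 20 of 22 cases. Id3, a target of BMP signalling, rose from 14.8, 16.2 and 16.4 to 300 and 420.5 CPM (4.54 ± 0.14), Smad6, an inhibitor of the pathway, by 4.58 ± 0.23, Acvr1, a receptor, by 3.10 ± 0.14, and Bmp1, which cleaves procollagen, by 7.09 ± 0.36.

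FGF, ERK and AP-1 genes split, with 16 of 28 higher and 9 lower. The ligand Fgf4, made by ES cells, had 3 counts in KO XEN and was 3014-fold lower by ratio (1031 to 14616). The ERK target Etv5 fell from 601, 517 and 473 to 8.12 and 7.39 CPM (-6.12 ± 0.16) and the feedback inhibitor Spry4 from 135, 221 and 209.9 to 1.62 and 1.52 CPM (-6.86 ± 0.24). Fosl2, an AP-1 subunit, rose from 4.34, 3.1 and 3.24 to 464 and 438 CPM (6.95 ± 0.16). WNT genes rose in 20 of 30 cases and fell in 5 (3 without KO XEN 5-3, with a filter of 1 CPM or with the ES libraries of 5-3 summed). The ligand Wnt4 rose from 0.196, 0.443 and 0.324 to 64.7 and 115 CPM (8.26 ± 0.20), and the receptors Fzd1 and Fzd2 rose by 8.40 ± 0.22 and 5.33 ± 0.20. Fzd5, a receptor that ES cells express, fell from 148, 118 and 132 to 9.68 and 11 CPM (-3.68 ± 0.17). Notum, which inactivates WNT ligands, fell by 6.01 ± 0.52 on the log2 scale.

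Genes of DNA replication and of mitosis fell together. Of 37 replication genes 34 were lower and 0 higher (median -2.04), and of 40 genes of G2 and mitosis 39 were lower and 0 higher (median -2.90). Orc1, of the origin recognition complex, fell from 146, 152 and 157 to 9.75 and 8.38 CPM (-4.08 ± 0.15), Mcm10, which activates the helicase, from 231, 297 and 288 to 17 and 17.5 CPM (-3.94 ± 0.15), and Prim1, the primase, by 3.34 ± 0.14 on the log2 scale. Hmmr, a spindle protein, fell from 371, 263 and 322 to 14.1 and 12 CPM (-4.66 ± 0.17), Cenpe, a kinetochore motor, from 233, 168 and 194 to 7.56 and 7.58 CPM (-4.73 ± 0.18), and the checkpoint kinases Bub1b and Ttk fell by 3.17 ± 0.13 and 4.44 ± 0.18 on the log2 scale. The 2 KO XEN libraries lay close to each other for all of these genes.

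Replication genes are known targets of E2F and mitotic genes of complexes that bind the CHR element. The E2F letters TTTCCCGC or TTTGGCGC, on either strand, were in 11 of 30 promoters of the replication list (36.7%), against 1.63% of all promoters and 2.91% of those of genes tested, and members with and without them had medians of -2.08 and -1.76. The CHR letters TTTGAA, on either strand, were in 25 of 32 promoters of the mitosis list (78.1%), against 18.1% of all promoters and 12.1% of those of genes tested. Mitosis genes with the letters had a median of -2.90 and those without a median of -3.54. Over all genes past 2-fold, E2F letters were in 4.24% of promoters of genes that were lower and 1.82% of genes that were higher, and CHR letters in 17.8% and 8.88%. The 2 members with a match and the smallest adjusted p in each list are shown with the match in capitals. They are Mcm5, a helicase subunit (chr8:75109320-75109407, plus strand), Pola1, a polymerase subunit (chrX:93632246-93632333, minus strand), Smc2, of condensin (chr4:52439036-52439121, plus strand), and Ect2, a regulator of cytokinesis (chr3:27153947-27154032, minus strand):
Mcm5: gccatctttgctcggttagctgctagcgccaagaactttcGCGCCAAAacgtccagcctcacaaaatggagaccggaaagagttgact
Pola1: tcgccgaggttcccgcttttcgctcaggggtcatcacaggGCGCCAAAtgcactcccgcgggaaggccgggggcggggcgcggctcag
Smc2: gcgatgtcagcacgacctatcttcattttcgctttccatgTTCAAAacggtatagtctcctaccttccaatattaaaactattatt
Ect2: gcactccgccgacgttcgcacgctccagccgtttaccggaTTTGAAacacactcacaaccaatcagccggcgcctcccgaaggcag
These 4 genes fell, Mcm5 from 431, 594 and 577 to 78.4 and 102 CPM, Pola1 from 279.7, 199.6 and 214 to 4.03 and 7.01 CPM, Smc2 from 413, 319 and 392 to 17.1 and 18.8 CPM and Ect2 from 388, 314 and 376 to 22.2 and 24.4 CPM.

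CDK inhibitors were among the genes that rose. Among G1 cyclins and CDK inhibitors 16 of 23 were higher and 4 were lower. Cdkn2b and Cdkn2a, neighbouring inhibitors on chromosome 4, rose from 0.687, 0.763 and 0.831 to 203 and 225 CPM (8.16 ± 0.15) and from 0.614, 1.03 and 0.851 to 201 and 243 CPM (8.13 ± 0.17). Cdkn1a, the inhibitor p21, rose from 49.4, 54.5 and 49.1 to 1011 and 872 CPM (4.19 ± 0.14). Ccnd1, cyclin D1, fell from 179, 326 and 339 to 52.5 and 53.9 CPM (-2.26 ± 0.23), and the kinase Cdk2 by 1.24 ± 0.18 on the log2 scale. Targets of p53 were higher in 19 of 29 cases with 0 lower (2 without KO XEN 5-3), among them Btg2, an inhibitor of proliferation (3.56 ± 0.13), and the kinase Plk2 (3.27 ± 0.12).

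Interferon response genes rose in 33 of 36 cases and fell in 2, with a median of 4.38. Of the 36, 13 passed the filter only through KO XEN, and of the 23 that passed it through both states 20 were higher and 2 lower. Irf7, the regulator of type I interferon, had 2 counts in KO ESC and stood at 69.1 and 147 CPM in KO XEN. Ifi35 rose from 3.04, 3.3 and 3.3 to 154 and 177 CPM (5.71 ± 0.13), and Rtp4, another interferon-induced gene, from 0.0491, 0.0246 and 0.0203 to 74.7 and 120.2 CPM (11.57 ± 0.29). Ifitm1, a membrane protein that ES cells express, went against the list and fell from 297, 140.1 and 114 to 2.12 and 2.7 CPM (-6.14 ± 0.42), and Ifitm2 fell by 0.76 ± 0.17 on the log2 scale. Antigen presentation genes rose in 18 of 19 cases. Psmb8, an immunoproteasome subunit, rose from 0.0736, 0.148 and 0.142 to 45.8 and 54.6 CPM (8.71 ± 0.23), Tap1, the peptide transporter, from 3.44, 5 and 4.56 to 186 and 207 CPM (5.57 ± 0.15), and H2-K1, a class I molecule, from 11.8, 14.4 and 14.3 to 145 and 158 CPM (3.52 ± 0.12). All 7 guanylate-binding proteins measured were higher, as were 10 of 12 chemokines, families chosen with results known.

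The core of the interferon-stimulated response element, GAAANNGAA on either strand, was in 16 of 25 promoters of the interferon list (64.0%), against 8.57% of all promoters and 7.01% of those of genes tested. The share was 7.50% in genes past 2-fold higher and 7.6% in genes past 2-fold lower, and list members with the core had a median of 3.82 against 4.38 without it. Shown with each match in capitals are Ifit3, an antiviral protein that rose from 0.0982, 0.0246 and 0.081 to 207 and 436 CPM (chr19:34583387-34583475, plus strand), and Ifih1, the sensor of double-stranded RNA MDA5, from 0.0245, 0.0246 and 0.0405 to 28.3 and 31.2 CPM (chr2:62646319-62646407, minus strand). They are the members with a match and the smallest adjusted p:
Ifit3: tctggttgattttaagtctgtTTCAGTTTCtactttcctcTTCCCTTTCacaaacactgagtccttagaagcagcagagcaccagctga
Ifih1: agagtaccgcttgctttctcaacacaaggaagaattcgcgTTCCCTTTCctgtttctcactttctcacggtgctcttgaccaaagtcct

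Ribosome biogenesis genes fell without exception, in 29 of 29 cases, with a median of -1.97. Npm1, nucleophosmin (chromosome 11, 33152287 to 33163206), fell from 2762, 2792 and 2614 to 179.7 and 181 CPM (-3.92 ± 0.13), Ncl, nucleolin, from 4172, 4481 and 4207 to 291 and 293 CPM (-3.87 ± 0.13), and Dkc1, which modifies ribosomal RNA, from 426, 383 and 399 to 18.4 and 23.8 CPM (-4.24 ± 0.18). Cytosolic ribosomal protein genes were lower in 24 of 43 cases and higher in 4, and the latter count was 2 under total-count or upper quartile scaling, with no filter, with all 7 libraries, without mitochondrial genes, and with 5-3_1 or 5-3_2 of KO ESC left out or both summed. Rpl3 fell by 2.96 ± 0.13 on the log2 scale, and Rplp1 rose from 299, 362 and 332 to 466 and 516 CPM (0.60 ± 0.11). These genes, like Gapdh, have many processed copies in the genome, so that counting can split their reads and their levels are uncertain. The ribosomal protein list summed to 18584 CPM in KO ESC, and of all genes above 100 CPM there 66.7% were lower and 14.6% higher. By symbol, 15 of 17 tRNA synthetases, 8 of 9 chaperonin subunits, 17 of 20 nucleoporins and 43 of 80 mitochondrial ribosomal proteins were lower.

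Energy metabolism genes fell more often than they rose, and so did genes of any kind above 100 CPM in KO ESC (66.7% lower, 14.6% higher). The glycolysis and oxidative phosphorylation lists summed to 10331 and 35960 CPM in KO ESC. A difference from other genes of like level was not tested. For glycolysis and hypoxia 19 of 31 were lower and 5 higher. Ldha, lactate dehydrogenase, fell from 1540.4, 1876 and 1598 to 299 and 301 CPM (-2.46 ± 0.14), Pfkp, a phosphofructokinase, from 736, 493 and 505 to 24.6 and 23.9 CPM (-4.60 ± 0.19), and Pdk1, which restrains pyruvate dehydrogenase, by 3.36 ± 0.13 on the log2 scale. Eno2, the neuronal enolase, and Egln1, an oxygen sensor, rose by 1.95 ± 0.18 and 1.78 ± 0.16. For oxidative phosphorylation 23 of 39 were lower and 3 higher, and 15 were lower without KO ESC 5-3_2. With mitochondrial genes left out of the fit 15 were also lower, but the list then lost members such as mt-Nd1. Ndufs1, of complex I, fell from 204, 202 and 205 to 70.5 and 70.4 CPM (-1.53 ± 0.11).

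Sterol and fatty acid synthesis showed no common direction, with 6 of 32 higher and 11 lower. The count of higher genes was 10 without KO ESC C4 and 11 without KO XEN C4, and the count of lower genes was 17 without KO XEN 5-3 and 6 in the fits with all 7 libraries. Elovl6, a fatty acid elongase, fell from 205, 268 and 281 to 9.25 and 7.97 CPM (-4.84 ± 0.21), and Srebf1, a regulator of lipid synthesis, rose from 39.3, 29 and 28.5 to 107 and 115 CPM (1.77 ± 0.16). Genes of ER stress and amino acid supply split, 6 of 31 higher and 15 lower. The amino acid enzymes Psat1 and Asns fell from 762, 670.1 and 672 to 76.1 and 92.4 CPM (-3.05 ± 0.16) and from 624, 530.1 and 496 to 97.5 and 114 CPM (-2.38 ± 0.17), whereas the stress factors Ddit3 and Atf3 rose by 2.33 ± 0.16 and 3.21 ± 0.29. The ER stress element ERSE, CCAAT and CCACG with 9 bases between them on either strand, which holds a CCAAT box, was in 6 of 29 promoters of this list (20.7%), against 0.13% of all promoters and 0.164% of those of genes tested, and members with and without it had medians of -0.09 and -0.61. Among the members that hold it, the chaperone Hsp90b1 (chr10:86705493-86705591, minus strand) fell from 1152, 1072 and 1162 to 296 and 372 CPM, and calreticulin, Calr (chr8:84847035-84847133, minus strand), rose from 679.7, 783 and 726 to 1207 and 1454 CPM. Both are printed because promoters with the same element went with opposite directions:
Hsp90b1: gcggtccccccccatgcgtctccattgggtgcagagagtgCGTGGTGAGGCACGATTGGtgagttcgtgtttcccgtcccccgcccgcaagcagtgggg
Calr: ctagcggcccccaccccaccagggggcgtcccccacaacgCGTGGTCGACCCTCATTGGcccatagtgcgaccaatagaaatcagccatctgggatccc

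Lysosome and autophagy genes rose in 23 of 31 cases and fell in 1 (3 without KO XEN 5-3), with a median of 1.92. Ctsd, cathepsin D, rose from 209.8, 236 and 204 to 2303 and 1870.4 CPM (3.25 ± 0.15), Ctsb, cathepsin B, from 95.3, 87 and 84.9 to 914 and 735 CPM (3.17 ± 0.11), and Sqstm1, the autophagy receptor p62, by 2.76 ± 0.12. Tfeb, the factor that activates lysosome genes, was the member that fell, from 25.5, 27.7 and 25.9 to 9.18 and 9.49 CPM (-1.49 ± 0.15). Its CLEAR site, TCACGTGA, was in 4 of 25 promoters of the list (16%) in 1.01% of all promoters and in 1.73% of those of genes tested. All 4 genes rose, with a median of 0.90 against 2.12 in members without the site, and over all genes the site was in 1.38% of those past 2-fold higher and 1.45% of those past 2-fold lower. The match in the promoter of Ctsd (chr7:142387879-142387966, minus strand) is in capitals, shown because Ctsd has the smallest adjusted p of the 4:
Ctsd: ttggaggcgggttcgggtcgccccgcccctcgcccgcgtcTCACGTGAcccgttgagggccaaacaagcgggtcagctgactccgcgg

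Imprinted genes rose in 16 of 30 cases and fell in 9. Igf2, the growth factor (chromosome 7, 142650766 to 142666816), rose from 5.79, 5.29 and 4.74 to 1234 and 3113 CPM (8.66 ± 0.42), Dlk1, a Notch-like ligand, from 1.35, 3.32 and 3.2 to 248 and 279.8 CPM (6.84 ± 0.28), and Ndn, necdin, by 4.66 ± 0.13. H19, the noncoding RNA next to Igf2, chosen after its values were seen, went from 28.4, 0.295 and 0.284 to 3493 and 14.7 CPM, and KO XEN C4 held far more than KO XEN 5-3 (6.49 ± 0.32, edgeR adjusted p = 4.11e-05). Phlda2 went against the list and fell from 13.4, 43.2 and 41.2 to 0.989 and 0.635 CPM (-5.19 ± 0.55).

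Lists of other lineages were mixed. Neural genes were higher in 10 of 24 cases and lower in 12. Dcx, doublecortin, rose from 0.0245, 0 and 0.0608 to 12.9 and 29.3 CPM (9.45 ± 0.51), while Stmn2, a stathmin, fell from 422, 409 and 444 to 10.9 and 11.7 CPM (-5.22 ± 0.15). In the trophoblast list 7 of 15 were higher and 5 lower (3 without any one library of 5-3), with Gata3 up from 0.245, 0.123 and 0.243 to 41.8 and 38.5 CPM (7.55 ± 0.27) and Ascl2 down by 3.78 ± 0.47 on the log2 scale. In the neural crest list, with 4 genes that passed the filter only through KO XEN, 8 of 14 were higher, among them Ets1 (6.70 ± 0.17) and Twist1 (3.68 ± 0.20), and 4 were lower, such as Tfap2c (-5.0 ± 0.34). In the blood and endothelium list, with 6 genes that passed the filter only through KO ESC, 4 of 16 were higher and 7 lower: Runx1 rose from 0.417, 0.689 and 0.912 to 48.4 and 68.3 CPM (6.55 ± 0.21), and Pecam1, an adhesion protein of endothelium and of ES cells, fell from 102, 75.8 and 73.4 to 1.2 and 1.27 CPM (-6.07 ± 0.21).

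**Figure D4:**
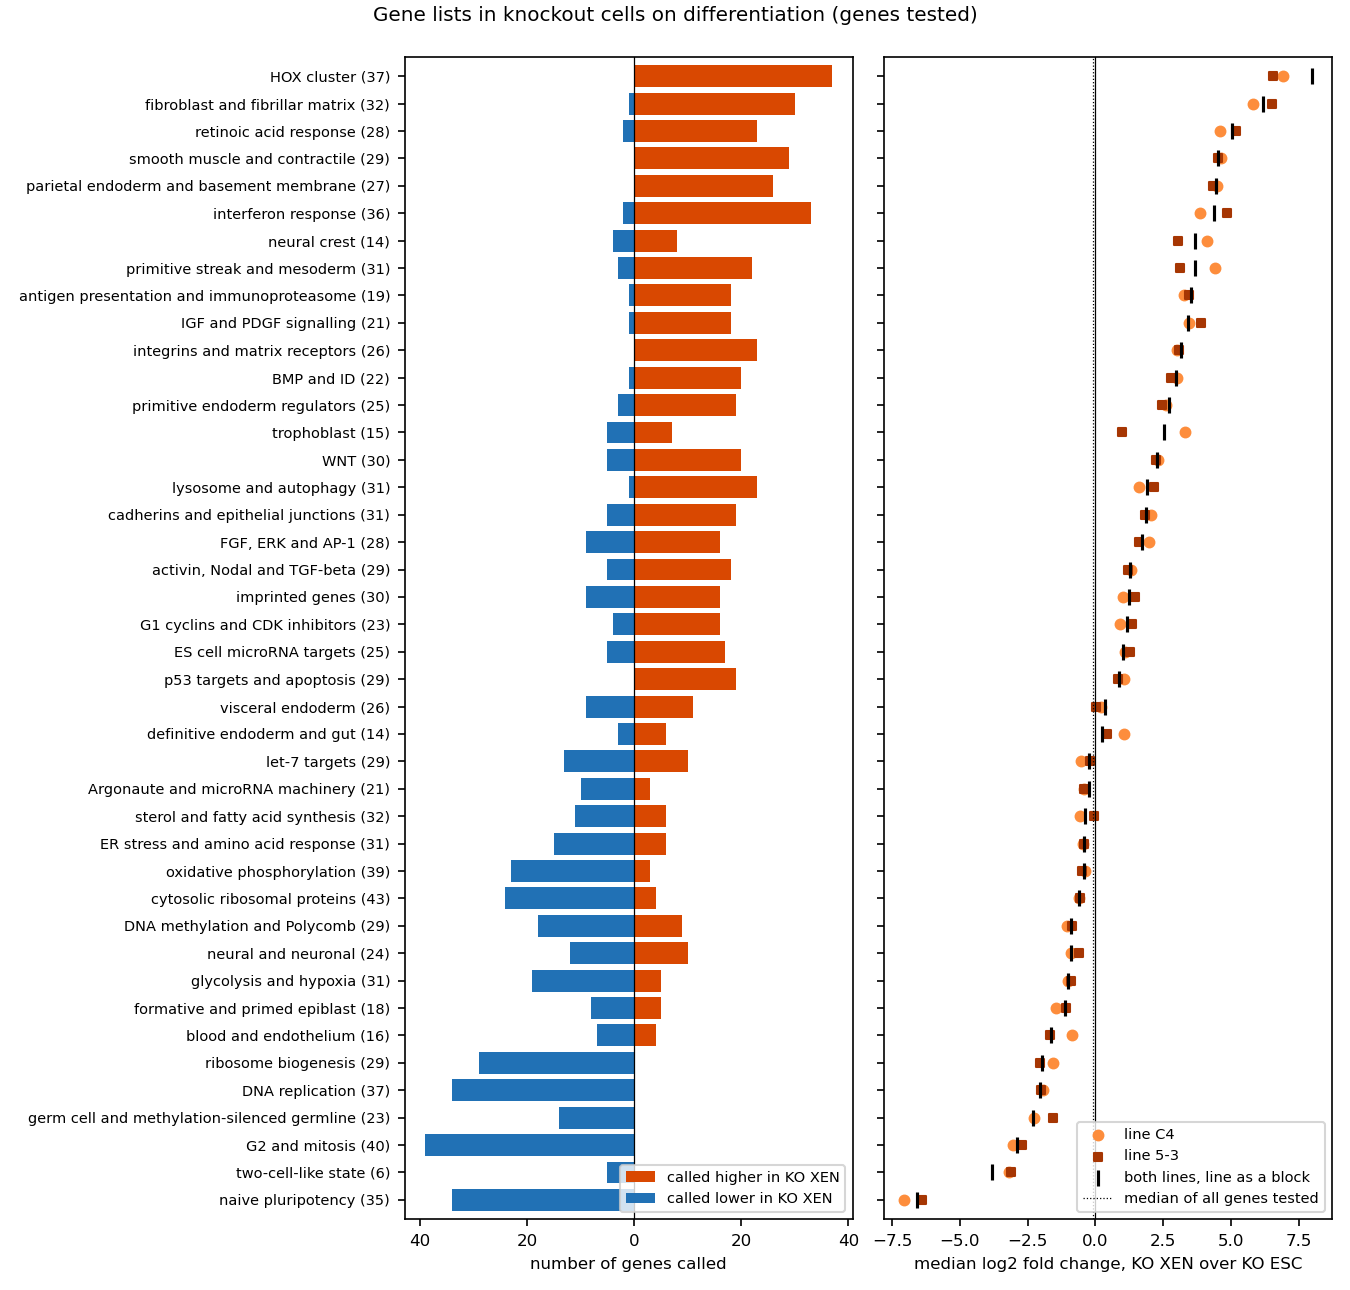
Left, the number of genes called higher (orange) and lower (blue) in each of 42 lists, with the number tested in parentheses; right, the median log2 fold change in line C4, in line 5-3 and with line as a block, against the median of all genes (dotted). The per-line medians lie close together in most lists, and the trophoblast and mesoderm lists show the widest gaps, with C4 above 5-3.

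MicroRNA genes and targets were read with the Argonaute genes in mind. In the list of Argonaute and microRNA machinery 3 of 21 were higher (5 without either C4 library) and 10 lower. Lin28a, which blocks let-7 maturation, fell from 417, 353 and 341 to 16.7 and 8 CPM (-5.09 ± 0.25), Lin28b by 1.59 ± 0.16 on the log2 scale, and Trim71, a let-7 target, from 335, 458 and 422 to 76.7 and 47.8 CPM (-2.73 ± 0.29). Limd1, a cofactor of microRNA silencing, rose from 19.5, 15.9 and 16.4 to 67.1 and 69.4 CPM (1.97 ± 0.14). Mir17hg, the host transcript of miR-17, went from 47.8, 42.2 and 52.6 to 1.98 and 1.21 CPM (-5.0 ± 0.27, edgeR adjusted p = 5.06e-05). Known targets of ES cell microRNAs were higher in 17 of 25 cases and lower in 5, with Akt1 (3.60 ± 0.12), Irf2 (7.14 ± 0.27) and Rhoc (4.67 ± 0.19) among those that rose. Targets of let-7 split, 10 of 29 higher and 13 lower. Hmga2, a chromatin protein, rose from 10.9, 16.1 and 18.6 to 95.3 and 163 CPM (3.19 ± 0.13), and Thbs1, thrombospondin, by 9.83 ± 0.38.

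Seed matches across all 3′ untranslated regions gave differences in median log2 fold change of at most 0.48. The mature microRNAs searched, from RefSeq (GRCm38.p6) with the seed, bases 2 to 8, in capitals, were those of ES cells (miR-294, miR-17), of differentiated cells (let-7a, miR-9, miR-10a), of epithelia (miR-200b) and of the p53 pathway (miR-34a), shown because the match to their seed sorts the genes:
miR-294-3p: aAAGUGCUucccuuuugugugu
miR-17-5p: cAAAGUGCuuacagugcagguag
let-7a-5p: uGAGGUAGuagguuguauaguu
miR-9-5p: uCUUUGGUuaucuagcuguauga
miR-10a-5p: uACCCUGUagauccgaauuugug
miR-200b-3p: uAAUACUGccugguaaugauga
miR-34a-5p: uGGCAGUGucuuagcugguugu
The seeds of miR-294-3p and miR-17-5p share 6 bases shifted by 1, so that their target sets overlap. Genes with a match to miR-294-3p had a median log2 fold change 0.083 above that of genes without (2290 against 12503 genes). The difference was 0.24 for miR-17-5p, 0.26 for let-7a-5p, 0.22 for miR-9-5p, 0.20 for miR-10a-5p, -0.062 for miR-200b-3p and 0.48 for miR-34a-5p. These figures move with the length of the untranslated region: genes with short (up to 574 bases), middle and long (from 1611 bases) regions had medians of -0.14, 0.18 and 0.24. Within these classes the difference for miR-34a-5p was 0.40, 0.31 and 0.45, and that for miR-294-3p ran from 0.40 over -0.035 to -0.13. For miR-200b-3p it was -0.021, 0.018 and -0.37. In the short, middle and long class it was 0.28, 0.39 and -0.024 for miR-17-5p and 0.31, 0.32 and 0.098 for let-7a-5p. For miR-9-5p it was 0.079, 0.053 and 0.15, and for miR-10a-5p 0.27, 0.14 and 0.026. MicroRNA levels were not measured in these libraries, and no test was made.

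Gene classes differed in direction. Protein-coding genes were higher in 40.4% and lower in 35.7% of 14890 cases. Long intergenic noncoding genes were lower in 193 of 370 cases and higher in 63, and snoRNA genes were lower in 121 of 132 cases and higher in 0. A snoRNA lies in an intron of its host gene and has no poly(A) tail, so that reads of the host can be counted for it. Of 11 snoRNA host genes named Snhg, 9 were lower and 1 higher, and all 22 measured PLATR noncoding RNAs were lower. Zinc finger genes named Zfp with a number were lower in 190 of 349 cases and higher in 93, and protocadherins were higher in 34 of 38 cases with 0 lower. Many gamma protocadherins share exons, so that their counts are uncertain one by one. Genes of the X chromosome were lower in 41.9% and higher in 25.5% of 699 cases.

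Promoters of the most changed genes had lower CpG ratios. The observed over expected CpG ratio had a median of 0.738 over 12162 genes tested with a promoter in the table, 0.544 in 614 genes called at least 32-fold higher and 0.319 in 406 called at least 32-fold lower. A ratio below 0.5 was found in 24.9%, 47.2% and 71.4% of them. Other motifs, searched in all promoters, gave the following shares. The CCAAT letters were in 35.2% of promoters of genes past 2-fold higher and 41.7% of genes past 2-fold lower, the AP-1 letters TGANTCA in 5.99% and 4.67%, the TEAD letters GGAATG in 13.7% and 11.9%, and the GATA letters AGATAA in 6.27% and 7.49%, against 38.4%, 5.13%, 12.5% and 6.53% of promoters of genes tested and 37.9%, 7.93%, 14.6% and 11.4% of all promoters. The octamer ATGCAAAT was in 1.63% and 1.70% (1.46% of genes tested, 1.75% of all), and the sterol element TCACNCCAC in 1.22% and 1.34% (1.16% of genes tested, 1.22% of all), each searched on both strands. The p53 half-site pair was found in 0.0627% and 0.0362%, with Cdkn1a the only member of the p53 list that held it. A match is a run of letters and not a bound site.

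**Figure D5:**
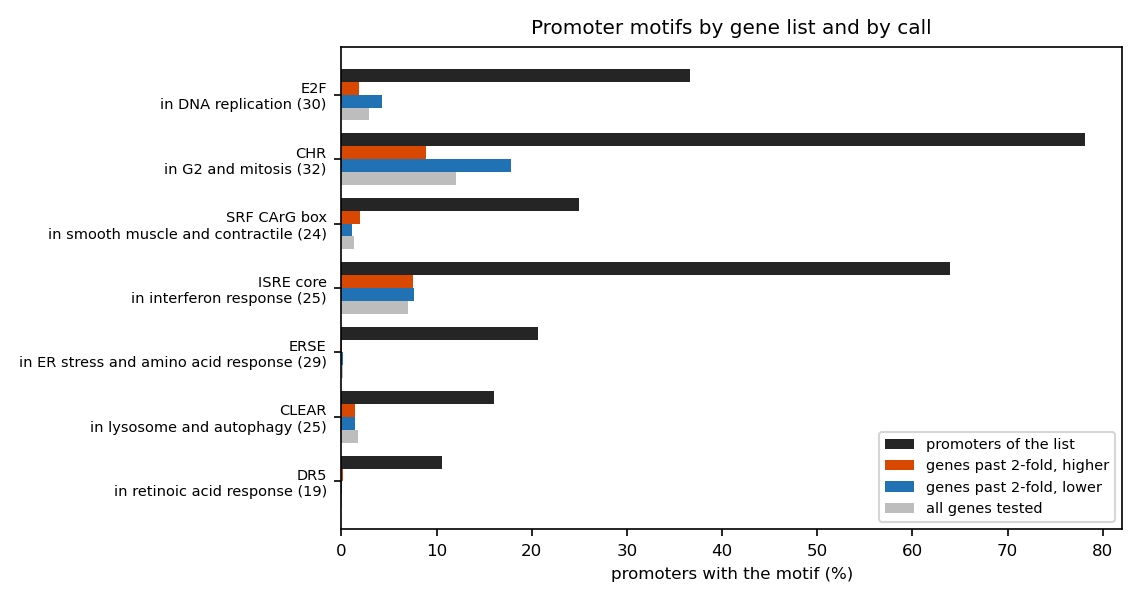
Percent of promoters with a motif in the gene list named at left (black, number of promoters in parentheses), in genes past 2-fold higher (orange) and lower (blue), and in all genes tested (grey). CHR letters in the mitosis list (78.1%) and ISRE cores in the interferon list (64.0%) stand furthest from the share of genes tested.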

How the data were processed

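Poly(A) RNA extracted with Trizol was made into libraries with the Illumina TruSeq RNA kit, per the labels' protocols. The authors deposited unnormalized read counts, whole numbers for 43629 Ensembl genes, made with STAR 2.4.2a on mm10 and featureCounts 1.4.5-p1, per the submitters' processing notes. Libraries are reverse-stranded per the labels. The strand setting of the counting and the annotation release are not given in the sources used here, so that counts of overlapping genes and close paralogs are uncertain. Symbols and positions are from GENCODE M21 (GRCm38, the assembly of mm10), which named 42548 of the IDs.

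Groups and lines were read from the titles. The 5 knockout libraries were fitted in R 4.3.3 with edgeR 4.0.16 (TMM scaling, filterByExpr by state, quasi-likelihood test, state with line as a block, 2 residual degrees of freedom), and glmTreat gave the genes past 2-fold. The pairing rests on the labelled line: deviations of C4 from 5-3 in the 2 states correlated across genes with r of 0.0788. The threshold was a Benjamini-Hochberg adjusted p of 0.05. Where a state had 0 counts, the fold is a bound that sets the state to 3 counts over its libraries (0.0229 CPM in KO ESC, 0.0657 CPM in KO XEN). A state of 1 to 3 counts has a ratio in its place, with an exact 95% interval. Floors and intervals cover counting error only. DESeq2 1.42.0 was an alternative. On simulated data for 16927 genes the fit recovered 44.6% of 92 genes changed 2-fold and 95.8% of 96 changed 4-fold, with 6 false calls. The simulation changed few genes, evenly up and down, with the same dispersion for every gene and no difference between lines. Its rates therefore need not hold for this comparison, where 73.0% of genes were called.

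The libraries compared, the 42 gene lists and the motifs were chosen with earlier results of these data known, so that list counts are descriptions. Genes named in the text are the Argonaute genes, the 10 largest rises and falls among called genes (at least 10 CPM, no overlap, no predicted genes), the 5 highest in each state, for each list up to 4 called members, ranked by adjusted p, and up to 2 that went against their list. Marker genes, families and other genes named beside a motif or a neighbour were chosen otherwise, partly after their values were seen. Of list entries, 2 (Dux, Eif1ad8) had no match. Promoters and mature microRNAs are from RefSeq on GRCm38.p6: 12162 tested genes had a promoter there, and 3′ untranslated regions of 14793 genes came from GENCODE transcripts.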

Additional observations from a re-analysis of the deposited data

How the results depend on the processing

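The 4 counts of called genes stayed within 1.5 times their value in every setting run (line block, all 7 libraries, 3 other scalings, DESeq2, 2 filters, leaving out libraries, summing the ES libraries of 5-3, thinning and mitochondrial genes left out). Without line as a block 6186 genes were higher and 6418 lower, and 4171 and 4037 past 2-fold, so that the pairing by line changed few calls. Leaving out 1 library in turn gave 5562 to 6925 higher and 5669 to 7087 lower, and 3783 to 4630 and 3623 to 4533 past 2-fold. Where a line then had a library in 1 state only, the block left that line out of the comparison, and a lone library was assumed to vary like the others. DESeq2 gave the fewest past 2-fold, 3547 higher and 3128 lower. The fit with all 7 libraries gives wild-type cells a term of their own, so that their line does not bear on the comparison.

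Of the 215 genes named by the rule (marker, HOX and family genes named beyond it were not run), 0 reversed in any setting, 5 lost their call in at least 1 setting (Crabp1, Grem1, Cubn, Meox1 and Zscan4f) and Eef1a1 gained one. The median log2 fold change of all genes tested ran from -0.03 to -0.45, the latter with no filter on low counts. The difference between lines was called for 225 genes by DESeq2 and for 0 by edgeR, and the cause was not tested. With the 250 bases before the start alone, 7 of 28 motif shares moved by more than their interval. Seed differences were set against the spread between lines. With bases 2 to 7 of the seed, and in the middle and the long class of region length, 6 moved by more and 1 did not. In the short class 5 moved by more and 2 did not. KO XEN C4 has the smallest total and limits what can be seen of genes that fell, since 3 counts over both KO XEN libraries are worth 0.0657 CPM.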

Other observations

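The genes, families and values here were chosen after their values were seen and carry no explanation. Among the 70 genes switched on from below 0.1 CPM to at least 10 CPM were transcription factors of mesenchyme, fat, cartilage and limb. Pparg, a nuclear receptor, stood at 0, 0.0246 and 0.0203 CPM in KO ESC and at 14.8 and 20.2 CPM in KO XEN, Sox9, a regulator of cartilage, at 0, 0.0985 and 0.0608 CPM and at 35.5 and 28.9 CPM, and Prrx1, a homeobox factor of limb mesenchyme, at 0.0736, 0.0738 and 0.0203 CPM and at 11.7 and 19.9 CPM. Aire, known for tolerance in the thymus, was among the 32 switched off, from 62.9, 89.9 and 91.9 CPM to 0.0706 and 0.0317 CPM.

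Of 4 Y-linked transcripts, 3 fell: Ddx3y, a helicase, from 177, 136 and 162 to 20.3 and 20.2 CPM, Eif2s3y, a translation factor, from 93.7, 63.2 and 75.1 to 13.8 and 18.9 CPM and Uty, a demethylase relative, from 66.1, 40.2 and 49.9 to 13.1 and 18.2 CPM. The other, Kdm5d, a histone demethylase, went from 1.15, 0.0738 and 0.0203 to 0.494 and 0.0635 CPM and was not called. DEAD-box helicases named Ddx were lower in 26 of 37 cases and higher in 3. Eph receptors and ephrins were higher in 17 of 21 cases and lower in 3, S100 proteins were higher in 6 of 8 cases, and keratins were split, 7 higher and 7 lower of 22. Pga5, a pepsinogen, moved in opposite directions in the lines, from 3.95 CPM to 1.27 CPM in C4 and from 1.67 and 1.6 CPM to 73.9 CPM in 5-3, and the difference did not pass the test (edgeR adjusted p = 0.227). Tspan8, a tetraspanin, went from 2.85 CPM to 0.848 CPM in C4 and from 1.08 and 1.07 CPM to 9.04 CPM in 5-3 (edgeR adjusted p = 0.227). Chromosome 15 held 41.5% of tested genes higher and 27.4% lower, chromosome 13 31.8% and 42.1%.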
